A study of Mus musculus with 2 samples.

Results

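The proneural basic helix-loop-helix (bHLH) factors of retinal neurogenesis were taken as 9 genes, Atoh7, Neurog2, Neurod1, Neurod2, Neurod4, Bhlhe22, Ptf1a, Olig2 and Tcf4, out of 31253 genes in the deposited expression table. They were taken by name as a family, with no level used in the rule, although earlier results of these data were known when the names were set. RNA sequencing levels were compared between cultured mouse neural retinal progenitor cells (mNRPCs) and retina tissue, with 1 library in each group. The mNRPC library came from cells of the C57BL/6 strain at passage 24. According to the methods of the study, these cells were grown out of adult neural retina on Matrigel in N2/B27 medium to which bFGF, a fibroblast growth factor, and the GSK3 inhibitor CHIR99021 had been added. The retina library came from retina tissue of the same strain, untreated as far as the labels say, and the labels give no age for it. The number of animals behind each library was not stated in the labels. As neither group had a second library, the spread between replicates is unknown for every difference given here, and no p-value was calculated. Both libraries are bulk samples, in which fewer cells of a type and less RNA per cell cannot be told apart.

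Proneural bHLH factors are transcription factors that drive progenitor cells to leave the cell cycle and become neurons. They bind DNA as dimers with a broadly expressed partner, an E protein, at a short site called the E-box. Id proteins take up the E proteins without binding DNA, and Hes and Hey repressors, many of them targets of Notch signalling, act against the proneural genes. In the retina each proneural factor is tied to certain neurons. Atoh7 is required for ganglion cells, Ptf1a for amacrine and horizontal cells, Neurod1 acts in photoreceptors and amacrine cells, Neurod4 in bipolar and amacrine cells, and Bhlhe22 in subtypes of both. Neurog2 marks progenitors that are about to form neurons, Neurod2 is found in subsets of amacrine and ganglion cells, and Olig2 is found in some retinal progenitors and in the oligodendrocyte lineage. Tcf4 is one of the E proteins, and so a partner of the others.

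Levels were given in FPKM, fragments normalised to transcript length and to the size of the library, which allows genes of different length to be set side by side. The depth, estimated from the lowest FPKM values, was 6.61e+06 fragments in the mNRPC library and 4.97e+06 in the retina library. At least 1 FPKM was reached by 11076 genes in the mNRPC library and by 12639 in the retina library. A gene listed at 0 can also be a failed estimate, although of 72 ribosomal protein genes, which every cell uses, 0 were listed at 0 in either library. One of them, Rps19, was at 0.0586 FPKM in the retina library against 10.2 in the mNRPC library, so a gene in use can fall to a level near 0 in this table. The retina library carried the rod programme, with a summed level of 38543 FPKM over 20 rod markers against 223 in the mNRPC library, and all 20 were lower in the mNRPC library. Of 12 retinal progenitor markers 6 were at least 2-fold higher in the mNRPC library and 4 lower, where 24.5% and 30.0% of all genes with at least 1 FPKM in either library were. Sox2 was at 231 FPKM in the mNRPC library, against 18.5 in the retina library, and Pax6 at 123 and 101. Of the same list, Rax and Six6, eye field genes, were listed at 0 in the mNRPC library. For Rax this differs from the paper, which reports it as expressed by RT-PCR in mNRPCs at earlier and later passages than this library. All 8 Müller glia markers were lower in the mNRPC library, with summed levels of 54.1 and 1985 FPKM. At least 1 FPKM was reached in the mNRPC library by 8 of 20 rod, 9 of 12 progenitor and 3 of 8 Müller glia markers. A marker that entered through the retina library alone and lay near 0 in the other had to be counted as lower. These marker counts are therefore descriptions.

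The start site regions of the members were looked at for the E-box, since proneural factors act through it and several of these genes are known targets of other members. RefSeq start sites of the assembly GRCm38.p6 were given for 7 of the 9 members. Bhlhe22 was not in that table, and the region of Tcf4 is not reported here. The E-box was searched as CANNTG, which reads the same on both strands, in the 250 bases before each start. It was found once for Neurod1, 3 times for Neurod2 and 3 times for Atoh7, and 0 times for Neurog2, Ptf1a, Olig2 and both start sites given for Neurod4. GENCODE M21 transcripts begin before the RefSeq start of several of these genes, and for Atoh7 1 of the 3 E-boxes lay before the transcript and the other two inside it. Among all 32851 regions of this length 66.2% held at least 1 E-box and 12.2% held 3 or more. The regions of Neurod1, Neurod2 and Atoh7 are printed because they held an E-box, and 1 region of Neurod4, which held none, is printed beside them. Sequences run 5′ to 3′ on the strand of the gene, in lower case, with each E-box in capitals. Bases that GENCODE M21 places inside a transcript were left out, which removed 115 bases next to the start for Neurod1 and 134 for Atoh7, while 3 such bases remain at the end for Neurod2.
Neurod1, chr2:79456752-79456886, minus strand: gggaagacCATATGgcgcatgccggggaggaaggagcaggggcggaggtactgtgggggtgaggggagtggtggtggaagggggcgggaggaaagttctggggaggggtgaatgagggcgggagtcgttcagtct
Neurod2, chr11:98329646-98329895, minus strand: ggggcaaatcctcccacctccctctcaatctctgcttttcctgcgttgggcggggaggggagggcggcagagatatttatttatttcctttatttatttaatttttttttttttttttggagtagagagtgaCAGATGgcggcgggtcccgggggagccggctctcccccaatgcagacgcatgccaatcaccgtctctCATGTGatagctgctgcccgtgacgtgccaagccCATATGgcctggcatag
Atoh7, chr10:63099535-63099650, plus strand: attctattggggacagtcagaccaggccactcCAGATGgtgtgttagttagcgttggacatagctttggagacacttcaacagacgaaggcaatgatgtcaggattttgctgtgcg
Neurod4, chr10:130280255-130280504, minus strand: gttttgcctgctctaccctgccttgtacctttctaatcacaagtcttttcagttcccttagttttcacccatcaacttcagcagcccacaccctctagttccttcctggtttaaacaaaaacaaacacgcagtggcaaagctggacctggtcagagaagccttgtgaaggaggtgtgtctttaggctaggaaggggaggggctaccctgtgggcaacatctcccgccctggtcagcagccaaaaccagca

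The E-box of Neurod1 was CATATG and began 127 bases before the first base of the transcript, or 242 before the RefSeq start. Those of Neurod2 were CAGATG at 115, CATGTG at 48 and CATATG at 14 bases before the transcript. The printed E-box of Atoh7 was CAGATG at 84 bases before the transcript, and the other two, both CACCTG, lay inside the transcript and are not printed. CAGATG, a subset of CANNTG searched on both strands, was found in 14.4% of all regions. The N-box, written CACNAG and searched on both strands, is a word known to be bound by Hes repressors. It was found 2 times in the printed region of Neurod4 and once in that of its other start site, which overlaps it, and 0 times for the other 6 members searched. Of all regions 36.7% held it. A match is a description of the letters and not of binding, which was not measured.

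The libraries differed in how many of these factors were read at all. At least 1 FPKM was reached by 6 of the 9 members in the retina library, Neurod1, Neurod4, Tcf4, Bhlhe22, Neurod2 and Neurog2, and by 2 in the mNRPC library, Tcf4 and Bhlhe22. Of all 31253 genes, 12639 reached it in the retina library and 11076 in the mNRPC library. Neurog2 lay near this limit, at 1.20 FPKM in the retina library. In the mNRPC library 6 members were listed at 0, and Neurod4 stood at 0.582 estimated fragments. Atoh7 and Olig2 were listed at 0 in both libraries. The E protein Tcf4 was higher in the mNRPC library, whereas Neurod1, Neurod4, Bhlhe22, Neurod2 and Neurog2 were lower in the mNRPC library.

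Genes with at least 1 FPKM in either library were compared, which kept 6 of the 9 members and left out Ptf1a, Atoh7 and Olig2. A gene was called higher or lower where its log2(FPKM + 1) differed by at least 1. Of the 6 members compared, 1 was higher in the mNRPC library, where 24.5% of all 13780 compared genes were higher, and 5 were lower, where 30.0% of all compared genes were lower. Of these 5, Neurod1, Neurod4, Neurod2 and Neurog2 entered the comparison through the retina library alone, and a gene that enters this way at a level near 0 in the other library has to be counted as lower. The count is therefore a description. The median difference of the 6 members was -2.74 on the log2(FPKM + 1) scale, against -0.12 over all compared genes. Most of the 6 entered through the retina library alone, so their median is a description as well. Without the filter the median was -1.14 over all 9 members, against 0 over all 31253 genes. When no pseudocount was added and lower levels were raised to that of 3 estimated fragments, the median of the 6 was -4.29.

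**Figure D1:**
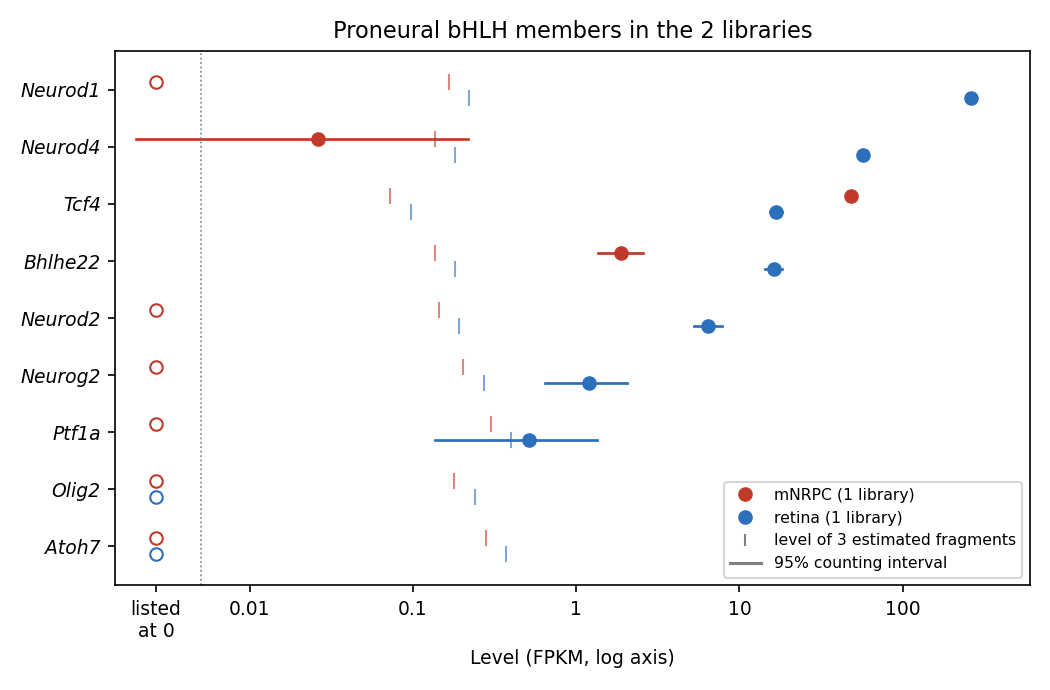
Level of each member in FPKM on a log axis, with 1 point for the mNRPC library (red) and 1 for the retina library (blue), horizontal lines for the 95% counting interval, short vertical ticks for the level of 3 estimated fragments in each library, and open circles for genes listed at 0. Neurod1 spans from listed at 0 to 263 FPKM, Tcf4 is the member with its mNRPC point to the right of its retina point, and Atoh7 and Olig2 have an open circle for both libraries.

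Neurod1 and Neurod4 were the members with the highest levels in the retina. Neurod1, needed for the survival of photoreceptors, was at 263 FPKM in the retina library (95% counting interval 255 to 272, about 3569 fragments) and listed at 0 in the mNRPC library. This level placed it at rank 189 among all 31253 genes, in the top 0.605%, where depth does not limit its detection. A level of 3 fragments corresponds to 0.166 FPKM for Neurod1 in the mNRPC library. Neurod4, which acts with other bHLH genes to form bipolar cells, was at 57.3 FPKM in the retina library (53.7 to 61.0, about 952 fragments) at rank 1196. In the mNRPC library it stood at 0.0263 FPKM, below the limit of 0.136 FPKM set by 3 fragments, and was at least 262-fold lower by the lower end of its counting interval. The intervals cover counting error only, and fragment numbers are estimates from FPKM and transcript length.

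Bhlhe22 was the neurogenic member that passed 3 estimated fragments in both libraries. It was at 1.89 FPKM in the mNRPC library (1.36 to 2.56, about 41.8 fragments) and at 16.2 FPKM in the retina library (14.3 to 18.3, about 269 fragments). The mNRPC level was 8.57-fold lower, with a counting interval of 6.17 to 12.2, and amounted to 11.7% of the retina level. On the log2(FPKM + 1) scale the difference was -2.57. The counting intervals of the levels did not overlap. Prdm8, a repressor that is known to work as a partner of Bhlhe22, was at 0.574 FPKM in the mNRPC library, against 44.1 in the retina library.

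Neurod2, Neurog2 and Ptf1a were low in the retina and listed at 0 in the mNRPC library. Neurod2 was at 6.45 FPKM in the retina library (5.26 to 7.84, about 101 fragments), and a level of 3 fragments is 0.144 FPKM in the mNRPC library. Neurog2 was at 1.20 FPKM in the retina library on about 13.3 fragments. Its interval of 0.644 to 2.04 FPKM reaches below the minimum of 1 FPKM but not down to 0.251, the upper limit of the interval around 0 in the mNRPC library. Ptf1a was at 0.515 FPKM in the retina library on 3.86 estimated fragments. Its interval of 0.136 to 1.34 FPKM overlapped that of the mNRPC library, which reached 0.370, and a difference was not detectable at this depth.

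Atoh7 and Olig2 were listed at 0 in both libraries. For Atoh7, which acts in a short window before ganglion cells form, 3 fragments correspond to 0.279 FPKM in the mNRPC library and 0.371 in the retina library. For Olig2 the limits were 0.179 and 0.239 FPKM. Levels under these limits were not detectable. Of the 12 genes of the oligodendrocyte lineage list, Olig1, Olig2, Nkx2-2, Mog and Mag were listed at 0 in both libraries and Sox10 stood at 0.0606 FPKM in the retina library. The summed level of that list was 17.0 FPKM in the mNRPC library and 18.6 in the retina library, and Cnp, an enzyme of myelin that other cells also make, held 14.97 FPKM of the former.

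Ordered by level, the retina library ran from Neurod1 over Neurod4, Tcf4, Bhlhe22, Neurod2 and Neurog2 to Ptf1a. Tcf4 at 16.7 FPKM (15.3 to 18.2) and Bhlhe22 at 16.2 were neighbours whose counting intervals overlapped, as did those of Neurog2 and Ptf1a. The other neighbours did not overlap. Of the summed 345 FPKM of the 8 members other than Tcf4, Neurod1 held 76.3%, Neurod4 16.6% and Bhlhe22 4.70%. In the mNRPC library the same 8 summed to 1.92 FPKM, and Bhlhe22 held 98.6% of that. The order there was Tcf4 at 48.1 FPKM, Bhlhe22 at 1.89, then Neurod4 under the limit and the 6 genes listed at 0.

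Tcf4 was at 48.1 FPKM in the mNRPC library (46.0 to 50.3) and at 16.7 in the retina library. The ratio was 2.88, with a counting interval of 2.61 to 3.17, and the difference was 1.47 on the log2(FPKM + 1) scale. Its rank was 1813 in the mNRPC library and 4541 in the retina library. The FPKM of the libraries did not have the same sum, at 616860 in the mNRPC library and 432256 in the retina library. With both libraries brought to a common sum the difference of Tcf4 was 0.99, just under the 2-fold limit, while the median over all compared genes moved from -0.12 to -0.68. The difference of Tcf4 above that median was 1.59 as deposited and 1.68 after rescaling. With rescaling 30.2% of the genes past 2-fold were higher in the mNRPC library, against 44.9% as deposited.

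The level of Tcf4 was spread over 13 transcript rows, 2 from curated and 11 from predicted RefSeq transcripts, whereas each of the other 8 members had 1 curated row. All 13 rows were higher in the mNRPC library, by at least 1.37-fold with a median of 3.31-fold, and 5 of them by at least 1 on the log2(FPKM + 1) scale. No fold is given for the last 2 predicted rows, at 0.0728 and 0.00542 FPKM in the retina library, since 0.0968 FPKM corresponds to 3 fragments of the gene there. The curated rows held 33.4% of the gene in the mNRPC library and 42.4% in the retina library. They stood at 8.09 and 7.99 FPKM in the mNRPC library, against 3.01 and 4.08 in the retina library. The predicted row with the highest mNRPC level held 7.97 FPKM there and 0.736 in the retina library, which is 16.6% and 4.40% of the gene. With the row of the highest mean level alone, the difference of Tcf4 was 0.82 and under the 2-fold limit. Reads that fit several transcripts are divided by estimation, so single rows are less certain than their sum.

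**Figure D2:**
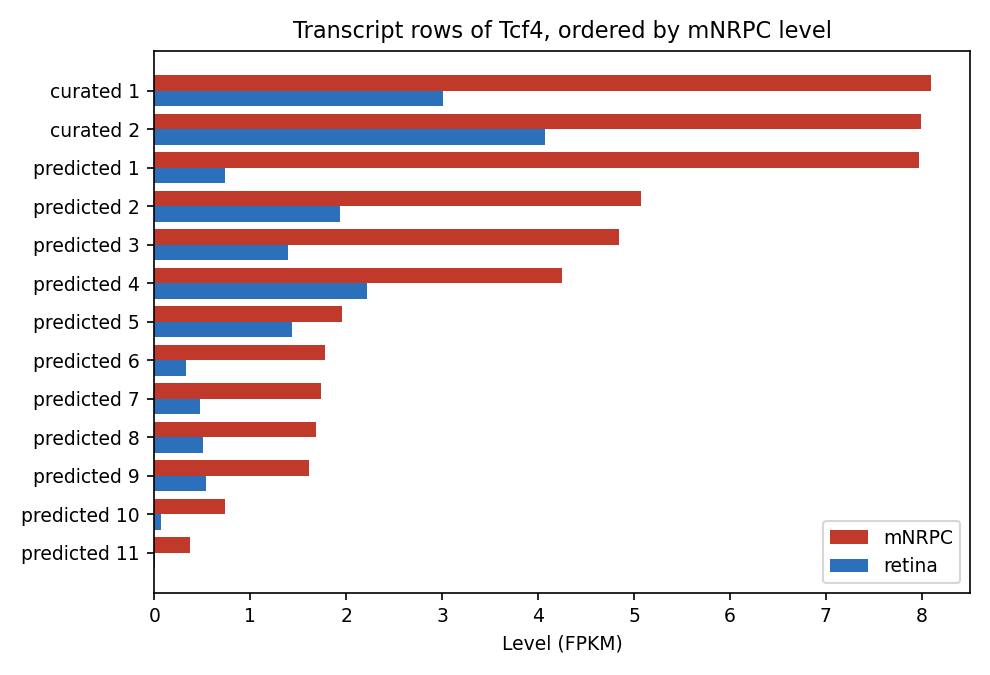
FPKM of the 13 Tcf4 transcript rows in the mNRPC library (red bars) and the retina library (blue bars), ordered by the mNRPC level, on a linear axis from 0, with 1 library per group and no error bars. The red bar is longer in all 13 rows, and the third row, a predicted transcript, has 7.97 FPKM against 0.736.

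The other E proteins were higher in the mNRPC library too. Tcf12 was at 132 FPKM in the mNRPC library, against 18.3 in the retina library, a difference of 2.79 on the log2(FPKM + 1) scale. Tcf3 was at 61.1 and 13.5 FPKM, a difference of 2.10. The 3 E proteins summed to 242 FPKM in the mNRPC library and 48.6 in the retina library, and 3 of 3 were counted as higher, beside 24.5% of all compared genes, or 2 of 3 after rescaling to a common sum, where Tcf4 dropped out. Tcf4 held 19.9% of the E protein sum in the mNRPC library and 34.4% in the retina library, and Tcf12 held 54.8% and 37.7%. The sum of the 8 remaining members was 7.10 times that of the E proteins in the retina library and 0.00794 times in the mNRPC library.

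Among the Id inhibitors, which compete for the same E proteins, the genes did not move in one direction. Id3 was at 241 FPKM in the mNRPC library, against 22.7 in the retina library, a difference of 3.35 on the log2(FPKM + 1) scale. Id2 was at 2.40 and 13.8 FPKM and Id4 at 4.26 and 20.7, so both were lower in the mNRPC library. Id1 was at 24.1 and 12.1 FPKM, a difference of 0.93. Of 4 genes, 1 was higher (24.5% of all compared genes), 2 were lower (30.0% of all) and 1 was within 2-fold, with a median of -0.56 against -0.12 over all compared genes. Id3 made up 88.7% of the Id sum in the mNRPC library and 32.8% in the retina library. Per FPKM of E protein there were 1.12 FPKM of Id genes in the mNRPC library and 1.43 in the retina library.

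The Hes and Hey repressors also split by gene. Of 12 genes 7 were compared, of which 1 was higher (24.5% of all compared genes), 3 were lower (30.0% of all) and 3 were within 2-fold, with a median of -0.92, or -0.19 over all 12. All 3 lower genes reached 1 FPKM in the retina library alone, at levels near 0 in the mNRPC library, which fixed their call. Hes1, a repressor that holds cells in the progenitor state, was at 33.9 FPKM in the mNRPC library, against 15.2 in the retina library. Its difference was 1.11, and no gene of the list was counted as higher after rescaling to a common sum or after upper quartile scaling. Hes5, a Notch target, was listed at 0 in the mNRPC library, with 5.60 FPKM in the retina library, and Hey2 was listed at 0 there, with 9.39 FPKM in the retina. Hes6, which antagonises Hes1, was at 38.6 and 23.3 FPKM, and Bhlhe40, a clock repressor, at 35.7 and 28.8.

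**Figure D3:**
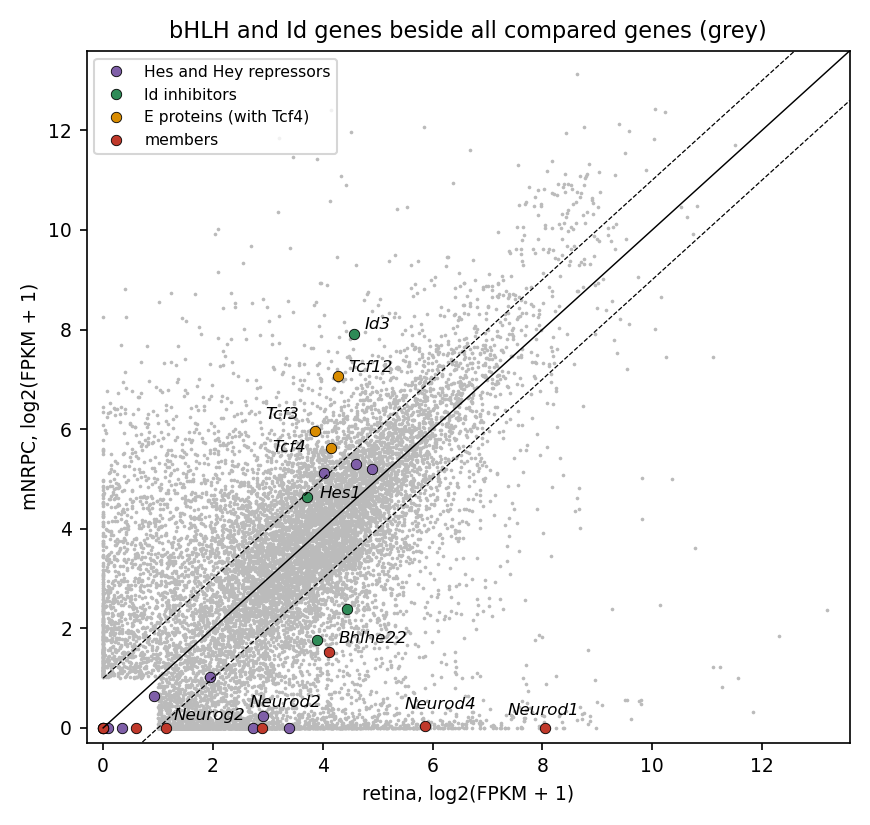
log2(FPKM + 1) in the mNRPC library against log2(FPKM + 1) in the retina library, with grey points for all 13780 compared genes, coloured points for the members, the E proteins, the Id inhibitors and the Hes and Hey repressors, a solid line for equal levels and dashed lines for a 2-fold difference. Neurod1, Neurod4, Neurod2 and Neurog2 lie along the bottom edge, Bhlhe22 lies below the lower dashed line, and Tcf4, Tcf3, Tcf12 and Id3 lie above the upper dashed line.

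Outside the 9 members, 42 further proneural and tissue-restricted bHLH genes were listed, and 21 of them were listed at 0 in both libraries. Of the 11 that were compared 3 were higher (24.5% of all compared genes) and 6 were lower (30.0% of all) in the mNRPC library, with a median of -1.09, which was -3.62 with a pseudocount of 0.1 and 0 over all 42 genes. All 6 lower genes were listed at 0 in the mNRPC library and entered through the retina library alone, so that they had to be counted as lower. Nhlh2, a bHLH factor of young neurons, was at 23.4 FPKM in the retina library and listed at 0 in the mNRPC library. Bhlhe23, which is needed for rod bipolar cells, was at 14.03 FPKM in the retina library and likewise listed at 0. Twist1, a bHLH factor of mesenchymal cells, was at 83.7 FPKM in the mNRPC library, against 0.185 in the retina library, on 1.49 estimated fragments. The ratio was 453, with a counting interval of 105 to 6367. Beside it, 3 of the 6 mesenchymal and pericyte markers that were compared were higher in the mNRPC library and 1 was lower, out of a list of 8. Their summed level was 468 FPKM against 18.2, with Col3a1 at 450 FPKM, Col1a2 at 0.0843 and Lum listed at 0 in the mNRPC library, and their part in the bHLH levels was not tested.

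Of 24 cofactors and target genes of proneural factors 20 were compared, and 11 were lower (30.0% of all compared genes), 4 higher (24.5% of all) and 5 within 2-fold in the mNRPC library, with a median of -1.94, or -0.92 over all 24. Of the 11 lower genes 9 reached 1 FPKM in the retina library alone, at levels near 0 in the mNRPC library, which fixed their call. Insm1 and Myt1, zinc finger factors switched on as progenitors become neurons, were at 21.1 and 17.1 FPKM in the retina library and listed at 0 in the mNRPC library. Stmn2, a microtubule regulator of growing axons, was at 44.0 FPKM and listed at 0. Elavl3, a neuronal RNA-binding protein, was at 14.5 FPKM in the retina library and, by the lower end of its counting interval, at least 96.4-fold lower in the mNRPC library. Higher in the mNRPC library was Sox4, a factor of newborn neurons and of many growing cells, at 22.8 against 2.76 FPKM. Btg2, an antiproliferative gene, was lower at 6.12 against 41.8 FPKM, and Rnd2, a small GTPase of neuron migration and target of Neurog2, was within 2-fold at 28.5 against 54.3 FPKM.

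The genes of the neurons that each member is tied to were set beside it. As above, 30.0% of all compared genes were lower and 24.5% higher in the mNRPC library. A gene that entered through the retina library alone and lay near 0 in the other had to be counted as lower, and at least 1 FPKM was reached in the mNRPC library by 2 of 10 photoreceptor, 2 of 12 bipolar, 5 of 14 amacrine and horizontal, and 3 of 12 ganglion cell genes. The counts are therefore descriptions. For Neurod1, 9 of the 10 genes of the photoreceptor programme were lower in the mNRPC library and 1 was within 2-fold, with a median of -5.19. Nrl, the factor that selects rod over cone fate, was at 885 FPKM in the retina library and 0.472 in the mNRPC library. Crx, the cone-rod homeobox factor, was at 467 FPKM in the retina library and 0.0977 in the mNRPC library, 4778-fold lower on 1.88 estimated fragments (1278 to 43486). Nr2e3, a repressor of cone genes in rods, was at 318 and 0.212 FPKM, 1499-fold lower on 2.86 fragments (501 to 7665). Otx2, which acts upstream of Crx, was at 119 and 0.0713 FPKM, 1669-fold lower on 1.02 fragments (302 to 62939). Samd7 and Rorb were at 51.9 and 39.7 FPKM in the retina library, and Samd7 was listed at 0 in the mNRPC library.

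For Neurod4 and Bhlhe22, 11 of the 12 genes of the bipolar programme were lower in the mNRPC library and 1 was higher, or 0 after rescaling to a common sum, with a median of -4.30. Grm6, the glutamate receptor of ON bipolar cells, was at 37.4 FPKM in the retina library and listed at 0 in the mNRPC library, and Trpm1, the channel it controls, was at 45.7 against 0.800 FPKM. Cabp5, a calcium-binding protein, was at 60.9 FPKM in the retina library and at least 154-fold lower by the lower end of its counting interval, and Gsg1 was at 35.0 FPKM and listed at 0. In the counts of this list Bhlhe23, already named, was also included.

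For Ptf1a, 14 genes of the amacrine and horizontal programme were listed and 11 compared, with 7 lower, 1 higher and 3 within 2-fold in the mNRPC library and a median of -1.58, or -1.01 over all 14 and -4.11 with a pseudocount of 0.1. Gad1, which makes the transmitter GABA, was at 103 FPKM in the retina library and 0.0858 in the mNRPC library, 1201-fold lower on 1.90 estimated fragments (323 to 10744). Slc32a1, the vesicular transporter of GABA and glycine, was at 35.5 FPKM in the retina library and at least 118-fold lower by the lower end of its counting interval. Tfap2b was at 10.6 FPKM in the retina library and listed at 0 in the mNRPC library, while Tfap2a, a related factor that is also active outside the retina, was higher there at 31.3 against 7.08 FPKM.

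For Atoh7, 11 of the 12 genes of the ganglion cell programme were compared and 11 were lower in the mNRPC library, with a median of -3.25. Nefl, a neurofilament subunit, was at 208 FPKM in the retina library and 1.40 in the mNRPC library, and Nefm was at 45.1 and 3.003. Sncg and Rbpms, markers of ganglion cells, were at 137 and 18.6 FPKM in the retina library and listed at 0 in the mNRPC library. Thy1 was at 106 and 0.244 FPKM, 435-fold lower on 2.80 estimated fragments (143 to 2278), and Isl1, a factor shared with bipolar cells, was at 29.9 against 2.25 FPKM. Ganglion cell genes were read in the retina library in which Atoh7 itself was listed at 0.

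**Figure D4:**
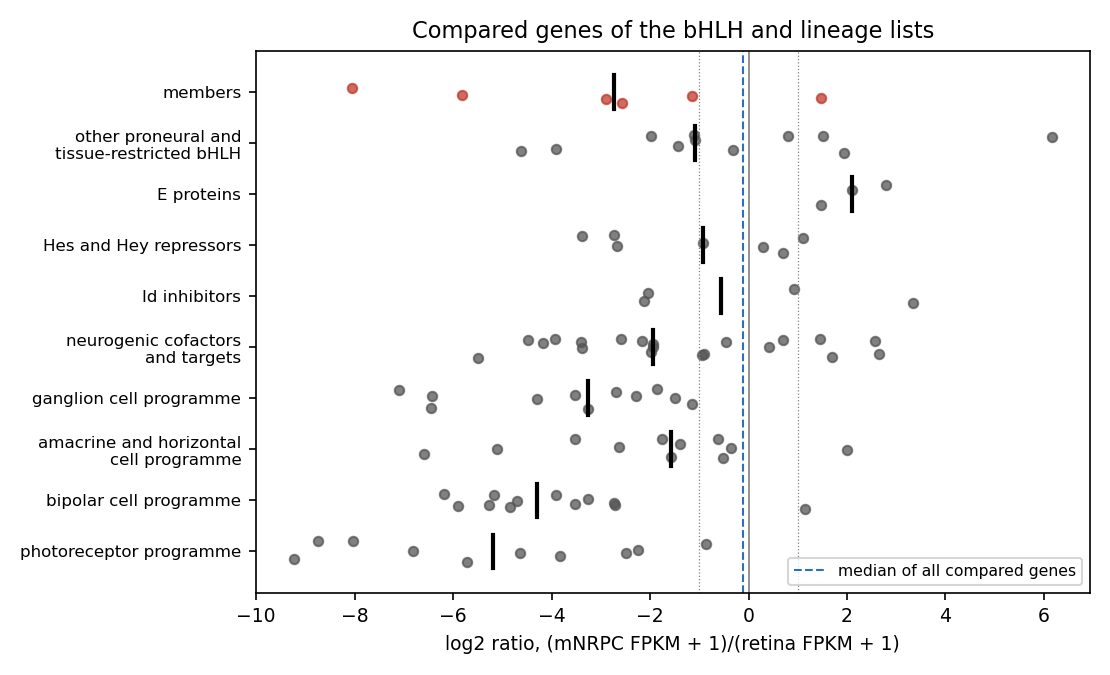
Difference between the libraries, log2 of (mNRPC FPKM + 1)/(retina FPKM + 1), for each compared gene of the members (red) and of the listed groups (grey), with a black bar at the median of each group, a dashed line at the median of all compared genes and dotted lines at a 2-fold difference. The E protein median lies at 2.10, the medians of the ganglion, bipolar and photoreceptor programmes lie at -3.25, -4.30 and -5.19, and the members spread on both sides of 0.

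The levels of the members in the mNRPC library were set beside those of the rod markers, whose median mNRPC level was 0.0543% of the retina level. At that share Neurod1 would have 2.58 fragments in the mNRPC library, where it was listed at 0. Neurod4 would have 0.688 fragments, and it had an estimated 0.582. Bhlhe22 would have 0.195 fragments, and it had an estimated 41.8. The numbers of Neurod1 and Neurod4 all lie under the limit of 3 fragments, so neither gene can be placed above or below that share. Where the fragments of Bhlhe22 came from was not tested.

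The genes most like the leading members were named by the distance between their levels in both libraries on the log2(FPKM + 1) scale, over these 2 values. Nearest to Tcf4 were 1110059E24Rik at 50.2 and 16.7 FPKM in the mNRPC and retina library, Aida at 45.9 and 16.8, and Pik3r1 at 46.8 and 17.4, at distances of 0.0592 to 0.0658. Nearest to Neurod1 were Pcp2, a gene of bipolar cells, listed at 0 and at 277 FPKM, Pde6h, a cone phosphodiesterase subunit, listed at 0 and at 244 FPKM, and Mpp4, a photoreceptor scaffold protein, at 0.0252 and 244 FPKM. Their distances were 0.0756, 0.105 and 0.112.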

How the data were processed

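RNA sequencing of 1 mNRPC library and 1 retina library was used. The authors deposited FPKM values per RefSeq transcript. Their methods name Bowtie 2 for alignment and eXpress for estimation, and the submitters' processing notes name TopHat2 2.0.10 and GRCm38.p3. The annotation release is not given in the sources used here. The series text and the methods also name different sequencers. Estimation divides reads shared between transcripts, so near-identical genes are uncertain, and the use of strand is not stated.

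Accessions were matched without version to RefSeq GRCm38.p6 and GENCODE M21, which gave symbols for 74280 of 106754 transcripts (69.6%), with 93.2% of the FPKM in the mNRPC library and 89.9% in the retina library. Transcripts of 1 symbol were summed, and values under 1e-06 were read as 0. Levels were compared as log2(FPKM + 1) for genes of at least 1 FPKM in either library, and a size of at least 1 was counted as higher or lower. Adding 1 understates the change of low genes. Depth was estimated from the lowest peak of FPKM times length over transcripts of at least 1500 bp. Intervals are exact 95% Poisson or binomial intervals of estimated fragments and cover counting error only, and 3 fragments were taken as the limit of detection. Above 0, a level of 1 to 3 fragments is given with its ratio and interval, and under 1 fragment the lower end of the interval alone is given. With 1 library per group there was no test between conditions. Calculations used Python 3.11.15, pandas 2.3.3, numpy 2.4.6 and scipy 1.17.1 and were tested on simulated data.

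Named genes were all members and, of each pathway list, those with at least 10 FPKM and a difference of at least 2 (up to 6 genes) or within 2-fold with at least 20 FPKM in both libraries, and, of the marker lists, some of the genes listed at 0. Hes1, Hes5, Hey2, Id1, Tfap2a, Rps19 and, of the marker lists, Sox2, Pax6, Cnp, Sox10, Col3a1 and Col1a2 were named outside this rule, after their values were seen. Other list genes, including marker genes listed at 0 in the mNRPC library such as Mbp, Kcnj10 and Rgs5, count towards their lists without their levels being reported here. The members and lists were chosen with earlier results of these data known. Alternatives were other pseudocounts, scalings, filters, transcript choices and thresholds. Genes of the pigment epithelium and microglia lists were summed as well, with 0.309 and 91.2 FPKM for the former and 1.23 and 17.8 FPKM for the latter in the mNRPC and retina library.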

Additional observations from a re-analysis of the deposited data

How the results depend on the processing

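Of 56 values of single members under other settings 0 turned their direction, and neither did any of 81 list medians. Neurod1, Neurod2, Neurog2 and Ptf1a were listed at 0 in the mNRPC library. Another pseudocount, scaling or transcript choice could not turn their direction. Neurod4 lay near 0 there, so its direction was in effect fixed as well. The lists also hold genes at or near 0 in the mNRPC library, and these counts are descriptions. As deposited, the calls were 1 member higher, 5 lower and 0 within 2-fold, with a median of -2.74. With the libraries brought to a common sum 0 were higher, 6 lower and 1 within 2-fold, with a median of -3.24 over 7 members, as Ptf1a entered at -1.13, and with the highest transcript alone 0 were higher and 1 was within 2-fold. In both cases Tcf4 was the member within 2-fold. At a log2 limit of 2, 0 were higher and 2 within, by construction. Without a filter 3 were within 2-fold and the median was -1.14, as genes near 0 in both libraries entered. The median was -4.87 with a pseudocount of 0.1 and -4.29 with none and levels raised to 3 fragments. At a minimum of 5 FPKM 1 member was read in the mNRPC library instead of 2. Tcf4 ranged from 0.82 to 1.52 and Bhlhe22 from -3.24 to -2.57. With levels raised to 3 fragments the median of the other bHLH genes was -2.23, of Hes and Hey genes -1.46, of amacrine and horizontal genes -3.79 and of photoreceptor genes -7.92. The Id median was -1.08 with a common sum. With the highest transcript alone the Hes and Hey median was -0.60 and that of the cofactors -1.28. No paired analysis was possible because neither group had more than 1 sample, and leaving out a replicate was likewise impossible. For Neurod4, at the estimated depth, levels under 0.136 FPKM in the mNRPC library and 0.180 in the retina library were not detectable.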
